A study of Mus musculus with 12 samples.

Results

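The genes described here are 9 genes of the mitochondrial pathway of cell death: Bcl2, Bcl2l1, Bax, Bak1, Bbc3, Pmaip1, Bcl2l11, Bid and Casp9. They were measured in whole mouse retina in which the homeobox gene Otx2 was deleted in developing photoreceptors. Every probe set whose annotation held 1 gene symbol and whose symbol was one of the 9 was taken, whatever its signal. This gave 24 of 45101 probe sets, for 8 of the 9 genes, where 18194 genes in all had such a probe set. Bax had no probe set annotated to it alone and was not analysed here.

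The mitochondrial pathway is held in check by Bcl2 and Bcl2l1 (Bcl-xL), which bind and hold the pore-forming proteins Bax and Bak1. BH3-only proteins relieve this hold. Among them Bbc3 (Puma) and Pmaip1 (Noxa) are classical p53 targets, Bcl2l11 (Bim) is induced in neurons deprived of trophic factors, and Bid links death receptors to mitochondria after cleavage by a caspase. Once the outer membrane is opened, cytochrome c and Apaf1 assemble the platform that activates Casp9 (caspase-9), the initiator of this pathway. In the rodent retina a part of the newborn neurons dies by this route in the first postnatal weeks.

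Total RNA of the retina was hybridized to 12 Affymetrix arrays, 3 in each of 4 groups. The Otx2 CKO groups were Otx2 flox/flox; Crx-Cre+ mice at postnatal day 1 (P1) and day 12 (P12), in which the Crx promoter drives Cre in photoreceptor precursors. The control groups were Otx2 flox/flox; Crx-Cre- mice of the same ages, so that the floxed alleles were shared by all 4 groups. Each group holds experiments 1 to 3, and since the sources used here do not say which animals were in each, the p-values measure only the spread between these arrays. The free-text descriptions of some arrays name the other genotype, and groups were taken from titles and genotype fields. Since whole retina was used, fewer cells of a type and less RNA per cell cannot be told apart in any value below.

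Otx2 itself was measured first, and at each age the 3 Otx2 CKO arrays lay below the 3 control arrays. Its signal was 144, 108 and 154 in the P1 Otx2 CKO retinas, against 376, 358 and 283 in the P1 control retinas. At P12 it was 245, 167 and 108 in the Otx2 CKO retinas, against 1058, 1048 and 803 in the control retinas. The log2 change was −2.44 at P12 (adjusted p = 7.02e-05, limma) and −1.23 at P1 (adjusted p = 0.205, limma). The position of these probes relative to the deleted exons was not examined.

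The arrays of the 2 ages were not on 1 scale. The trimmed mean signal was 25.1 ± 3.04 in the P1 Otx2 CKO and 29.3 ± 0.848 in the P1 control arrays, and 130.1 ± 36.3 in the P12 Otx2 CKO and 102 ± 8.30 in the P12 control arrays (SD, n = 3 each). The brightest array was P12 Otx2 CKO replicate 1, with a trimmed mean of 172. The median log2 change over all probe sets tested was 0.39 at P12 and −0.20 at P1 as deposited, and 0.06 and 0.00 after quantile normalization within each age. The log2 changes below are as fitted, with these medians not subtracted, and are to be read beside them. With the deposited signals 3027 probe sets were higher and 971 lower at P12, and after normalization 1764 were higher and 1854 lower. Marker genes of retinal cells also differed between the genotypes at P12. The summed signal of 9 photoreceptor markers was 1017 to 2165 in the Otx2 CKO and 30510 to 43930 in the control arrays, and each of the 9 was lower. The sum of 7 bipolar cell markers was 627 to 1259 in the Otx2 CKO and 5846 to 8203 in the control arrays, with 5 of 6 tested markers lower, Otx2 among them. The sum of 8 microglia markers was 2871 to 3798 in the Otx2 CKO and 549 to 1049 in the control arrays, with all 7 tested markers higher. The sum of 8 amacrine cell markers was 10920 to 15330 against 6084 to 9143, and that of 5 markers of dividing progenitors was 506 to 612 against 111 to 177. Of the amacrine cell markers Pax6, Slc6a9 and Slc32a1 were called higher. Calb2, Gad1, Gad2, Tfap2a and Tfap2b were not called. Of the progenitor markers Hes5 (mean 329 against 59.0) and Mcm6 (128 against 49.7) were called higher, while Mki67, Top2a and Cdk1 were too dim to be tested. Of the called markers, P2ry12, Aif1 and Mcm6 reached the signal limit of 50 at P12 only through their Otx2 CKO means. Arr3, Cabp5 and Vsx1 reached it only through their control means. For these markers a difference was partly required for a test. No marker of these lists was at 0 in its group mean. The part of these cells in the results below was not tested.

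At P12 expression of the BH3-only genes Bid, Bbc3 and Bcl2l11 was higher in the Otx2 CKO retina than in the control retina. At P1 no difference was detected for any gene of the family. Only probe sets with a group mean of at least 50 on either side of a comparison were tested, with limma on log2(signal + 16) with Benjamini-Hochberg adjustment over all probe sets tested. At P12, 12 of the 24 probe sets were tested, and 6 of them were higher and 0 lower. Over all 21390 probe sets tested at P12, 14.2% were higher and 4.54% lower. Of the 12, 3 reached the limit only through the P12 Otx2 CKO group (Bid 1448560_at, Bcl2l11 1456006_at and Bcl2l1 1426191_a_at), and 2 of the 6 calls were among these, so that they add no support. Among the other 9, 4 were higher. At P1 only 3 of the 24 were tested, 2 of Bcl2l11 and 1 of Bcl2l1, and none passed (0 of 3 also at an unadjusted p under 0.05). Over all 8384 tested at P1, 0% were higher and 0.179% lower.

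The bases before the transcription starts of Bid, Bbc3 and Bcl2l11 are shown because these are the members that were higher together at P12. The windows are the 250 bases before the start from RefSeq (GRCm38.p6). Bid has 1 listed start, Bbc3 has 3 and Bcl2l11 has 2, and for the last 2 genes the most upstream start is shown. Capitals mark GTAAACA, the core bound by Foxo factors.
Bid, chr6:120916825-120917074, minus strand: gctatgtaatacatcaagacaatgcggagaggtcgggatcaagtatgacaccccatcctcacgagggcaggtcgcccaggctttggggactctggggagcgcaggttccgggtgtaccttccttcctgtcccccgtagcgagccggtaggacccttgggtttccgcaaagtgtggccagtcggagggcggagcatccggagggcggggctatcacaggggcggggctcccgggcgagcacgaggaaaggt
Bbc3, chr7:16309333-16309582, plus strand: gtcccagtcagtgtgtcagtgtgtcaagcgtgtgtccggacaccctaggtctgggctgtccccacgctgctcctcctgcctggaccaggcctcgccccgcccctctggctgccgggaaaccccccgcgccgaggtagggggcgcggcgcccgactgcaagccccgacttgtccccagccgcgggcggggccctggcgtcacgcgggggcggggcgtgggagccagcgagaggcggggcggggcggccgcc
Bcl2l11, chr2:128125788-128126037, plus strand: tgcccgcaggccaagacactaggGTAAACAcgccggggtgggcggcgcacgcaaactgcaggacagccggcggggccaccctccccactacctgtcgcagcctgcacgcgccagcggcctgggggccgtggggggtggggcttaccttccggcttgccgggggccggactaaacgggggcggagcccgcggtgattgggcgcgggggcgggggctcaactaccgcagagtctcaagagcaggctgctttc
All 3 windows were rich in G and C, at 63.6% for Bid, 76.4% for Bbc3 and 72% for Bcl2l11, against a median of 52.4% over 32841 windows of the same length. This was not particular to the 3 genes. Among members without a call, the windows were at 74.8% for Bcl2, 66% for Casp9, 58.4% for Bak1 and 47.6% to 53.2% for Bcl2l1. On either strand, GTAAACA was found in 3.17% of all windows and in 2 of the 13 windows of the 8 genes that have one. These were the Bcl2l11 window shown, 227 to 221 bases before the start, and the second Bbc3 window. TAATCC, the core bound by Otx2 and Crx, was in 6.25% of all windows and in 1 of the 13, that of Bax. The E2F sites TTTCGCGC and TTTGGCGC were in 0.655% of all windows and in 1 of the 13, the second of Bcl2l1. The p53 decamer consensus was in 7.13% of all windows and in 1 of the 13, that of Bax. A match is only a run of letters, and a motif missing from a window says nothing of sites elsewhere.

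**Figure D1:**
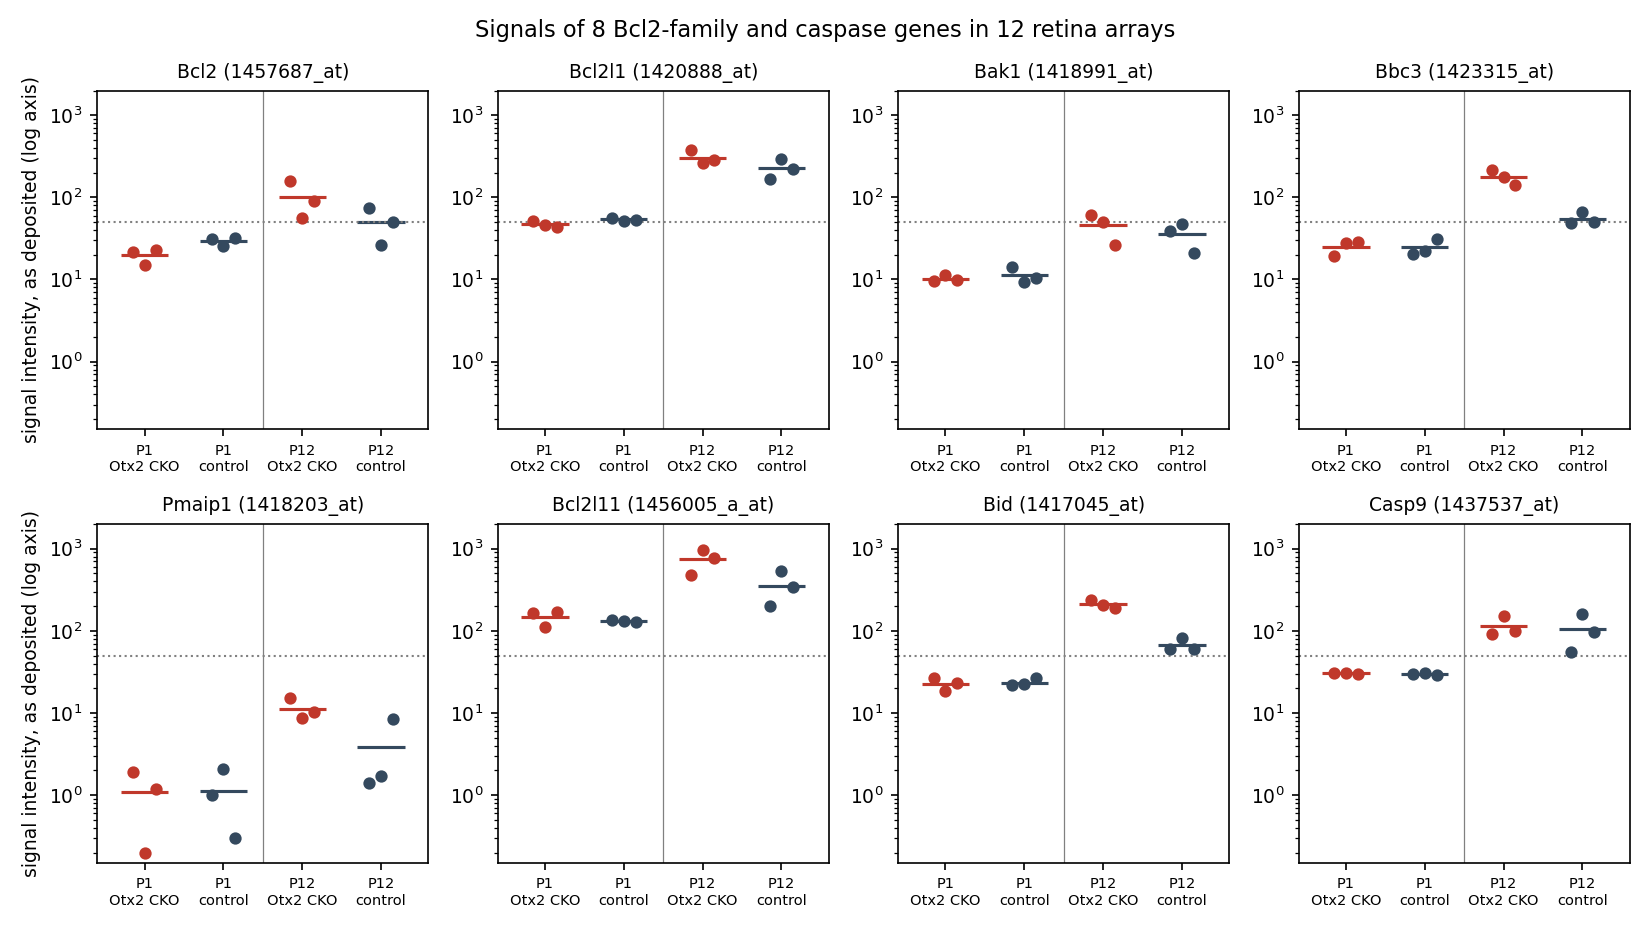
Deposited signal intensity (log axis) of the probe set with the highest mean signal of each of 8 genes, with 1 point for each array and a line at the group mean; the dotted line is the signal limit of 50. At P12 the 3 Otx2 CKO points of Bid and Bbc3 lie above all 3 control points, while the points of Bcl2l1, Bak1 and Casp9 overlap, and the scale differs between P1 and P12.

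Bcl2, the founding anti-apoptotic member, was measured by 5 probe sets, and only 1457687_at reached the limit. Its signal was 159, 55.8 and 89.9 in the P12 Otx2 CKO retinas, against 74.5, 26.5 and 50.3 in the P12 control retinas. The groups overlapped, although within each experiment number the Otx2 CKO array was 2.13, 2.11 and 1.79 times its control. The log2 change was 0.79 (SE 0.33) and did not pass the threshold (adjusted p = 0.113, limma). Blocking on the experiment number gave an adjusted p of 0.00176 on the deposited signals and 0.013 after quantile normalization within each age. It was 0.0306 without P12 Otx2 CKO replicate 2, where the log2 change was 1.10. At P1 the signals of 1457687_at were 21.6, 14.8 and 22.8 in the Otx2 CKO retinas, against 30.8, 25.6 and 31.9 in the control retinas, all under the limit and not tested. The other 4 Bcl2 probe sets had group means of 6.1 to 46.5 and were not tested.

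Bcl2l1, an anti-apoptotic protein on which many neurons depend, had 3 tested probe sets at P12 and no detected difference. Its probe set 1420888_at gave 373.1, 261.8 and 281.2 in the P12 Otx2 CKO retinas, against 167.2, 294.9 and 221.1 in the P12 control retinas. The groups overlapped, and the log2 change was 0.42 with a 95% interval of −0.08 to 0.91 (adjusted p = 0.218, limma). Without P12 control replicate 2 the log2 change was 0.61 and the adjusted p 0.0484. The probe sets 1420887_a_at and 1426191_a_at had log2 changes of 0.22 each (adjusted p = 0.622 and 0.611), the second of them tested only through its Otx2 CKO mean. After quantile normalization within each age the 3 changes were 0.10, −0.02 and 0.03. At P1 1420888_at gave 51.4, 46.7 and 44 in the Otx2 CKO retinas, against 56.6, 51.4 and 53.7 in the control retinas, with a log2 change of −0.14 (adjusted p = 0.91), which turned positive under each of 4 other scalings. The fourth probe set, 1426050_at, stayed under 15 in all arrays.

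Bak1, a pore-forming protein of the outer mitochondrial membrane, was below the signal limit. Its probe set 1418991_at gave 61.8, 49.6 and 26.1 in the P12 Otx2 CKO retinas, against 38.5, 47.7 and 21.1 in the P12 control retinas. The groups overlapped and both means were under 50, so that no test was made. The probe set 1425716_s_at, whose suffix marks probes shared by several transcripts, had group means of 3.07 to 17.4.

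Bid was higher in the P12 Otx2 CKO retina under nearly all settings. Its probe set 1417045_at gave 236, 205 and 191 in the P12 Otx2 CKO retinas, against 59.7, 82.7 and 59.8 in the P12 control retinas. Every Otx2 CKO array was above every control array, and within the experiment numbers the ratios were 3.95, 2.48 and 3.19. The log2 change was 1.45 (SE 0.20, adjusted p = 0.000341, limma), and it was past the threshold in 25 of 26 alternative settings. It was 1.15 after quantile normalization within each age (adjusted p = 0.0019). The exception was each age fitted alone after that normalization (adjusted p = 0.0595). At P1 the same probe set gave 26.6, 18.4 and 22.9 in the Otx2 CKO retinas, against 21.8, 22.3 and 26.3 in the control retinas. These groups overlapped and were below the limit.

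Another Bid probe set, 1448560_at, differed in the same direction. It gave 84.3, 63.7 and 78.4 in the P12 Otx2 CKO retinas, against 6.4, 25.4 and 23.6 in the P12 control retinas. The groups did not overlap and the log2 change was 1.45 (SE 0.26, adjusted p = 0.00251, limma). It passed the signal limit only through the Otx2 CKO group, so that a difference was partly required for it to be tested at all. With each age fitted alone its adjusted p was 0.0778. The third, 1447873_x_at, gave 28.7, 24.7 and 12.7 in the P12 Otx2 CKO retinas, against 11.4, 13.8 and 4.3 in the P12 control retinas, and was not tested.

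Bbc3, measured by the single probe set 1423315_at, behaved like Bid. It gave 217, 178 and 143 in the P12 Otx2 CKO retinas, against 49.1, 65.5 and 49.5 in the P12 control retinas. The groups were apart, and the ratios within the experiment numbers were 4.41, 2.72 and 2.88. The log2 change was 1.46 (SE 0.22, adjusted p = 0.000725, limma), and 1.15 after quantile normalization within each age (adjusted p = 0.00515). It passed the threshold in 25 of 26 alternative settings, with the same exception as Bid (adjusted p = 0.0573). At P1 it gave 19.2, 27.8 and 28.6 in the Otx2 CKO retinas, against 20.3, 22.5 and 30.9 in the control retinas, with overlapping groups below the limit.

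Bcl2l11 had 5 probe sets, of which 4 were tested at P12 and 3 were higher. One of these calls, that of 1456006_at, was on a probe set tested only through its Otx2 CKO mean, and another, that of 1456005_a_at, was lost in most settings. The probe set 1435448_at gave 392, 316 and 302 in the P12 Otx2 CKO retinas, against 202.4, 159 and 147 in the P12 control retinas. The groups did not overlap, and on the deposited signals the ratios within the experiment numbers were 1.94, 1.99 and 2.05. The ratios were less alike after quantile normalization of the 12 arrays. There replicates 1 to 3 gave 159.3, 206 and 194.5 in the Otx2 CKO, against 149.8, 111.1 and 108.5 in the control retinas. Its log2 change was 0.93 (SE 0.20, adjusted p = 0.00802, limma) and 0.57 after quantile normalization within each age (adjusted p = 0.0445). It was not past the threshold in 4 of 26 alternative settings, among them each age fitted alone (adjusted p = 0.165) and quantile normalization of the 12 arrays (adjusted p = 0.0578).

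The Bcl2l11 probe set 1456005_a_at gave a less stable result. Its signal was 479.4, 959 and 780 in the P12 Otx2 CKO retinas, against 198, 529 and 339 in the P12 control retinas. Here the lowest Otx2 CKO array lay below the highest control array, while the ratios within the experiment numbers were 2.42, 1.81 and 2.30. The log2 change was 1.07 (SE 0.34, adjusted p = 0.043, limma). The call was lost in 18 of 26 alternative settings, and without any 1 of 10 of the 12 arrays (adjusted p up to 0.118). It held without P12 Otx2 CKO replicate 1 and without P12 control replicate 2. Blocking on the experiment number gave an adjusted p of 0.000373 on the deposited signals, and 0.00221 after quantile normalization within each age.

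Of the other Bcl2l11 probe sets, 1456006_at gave 67.1, 40.9 and 84.9 in the P12 Otx2 CKO retinas, against 30.1, 14.5 and 18.4 in the P12 control retinas. Its groups were apart and its log2 change was 1.10 (SE 0.25, adjusted p = 0.0097, limma), but it too was tested only through its Otx2 CKO mean. The probe set 1435449_at gave 149, 114 and 96.8 in the P12 Otx2 CKO retinas, against 65.6, 95.7 and 71.9 in the P12 control retinas. These arrays did not overlap either, but the log2 change of 0.53 did not pass (adjusted p = 0.0998, limma). It passed in 2 of 26 alternative settings, with the block (adjusted p = 0.0466) and when P12 control replicate 2 was left out (0.67, adjusted p = 0.0352). After quantile normalization within each age the change was 0.24, with an adjusted p of 0.477 without the block and 0.184 with it. The probe set 1426334_a_at was under the limit, at 42.2, 44.3 and 60.8 in the P12 Otx2 CKO retinas, against 37, 21.5 and 16.3 in the P12 control retinas. At P1 the 2 tested Bcl2l11 probe sets had log2 changes of 0.14 (1456005_a_at, adjusted p = 0.913) and −0.09 (1435448_at, adjusted p = 0.912).

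Pmaip1 was below the signal limit in all groups. Its probe set 1418203_at gave 15.1, 8.7 and 10.2 in the P12 Otx2 CKO retinas, against 1.4, 1.7 and 8.5 in the P12 control retinas, and at most 2.1 at P1. The P12 groups did not overlap, but all 12 values were far below the limit and no test was made.

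For Casp9 no difference was detected. The probe set 1437537_at gave 92.6, 150.2 and 98.8 in the P12 Otx2 CKO retinas, against 55.2, 162 and 97.4 in the P12 control retinas. The groups overlapped, and the log2 change was 0.18 with a 95% interval of −0.46 to 0.81 (adjusted p = 0.687, limma). After quantile normalization within each age it was −0.08. The probe set 1426125_a_at gave 22.3, 21.6 and 50.4 in the P12 Otx2 CKO retinas, against 54.8, 41.5 and 34.3 in the P12 control retinas, and was tested only after that normalization (−0.57, adjusted p = 0.167). The last, 1457816_at, stayed under 10 in all arrays.

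**Figure D2:**
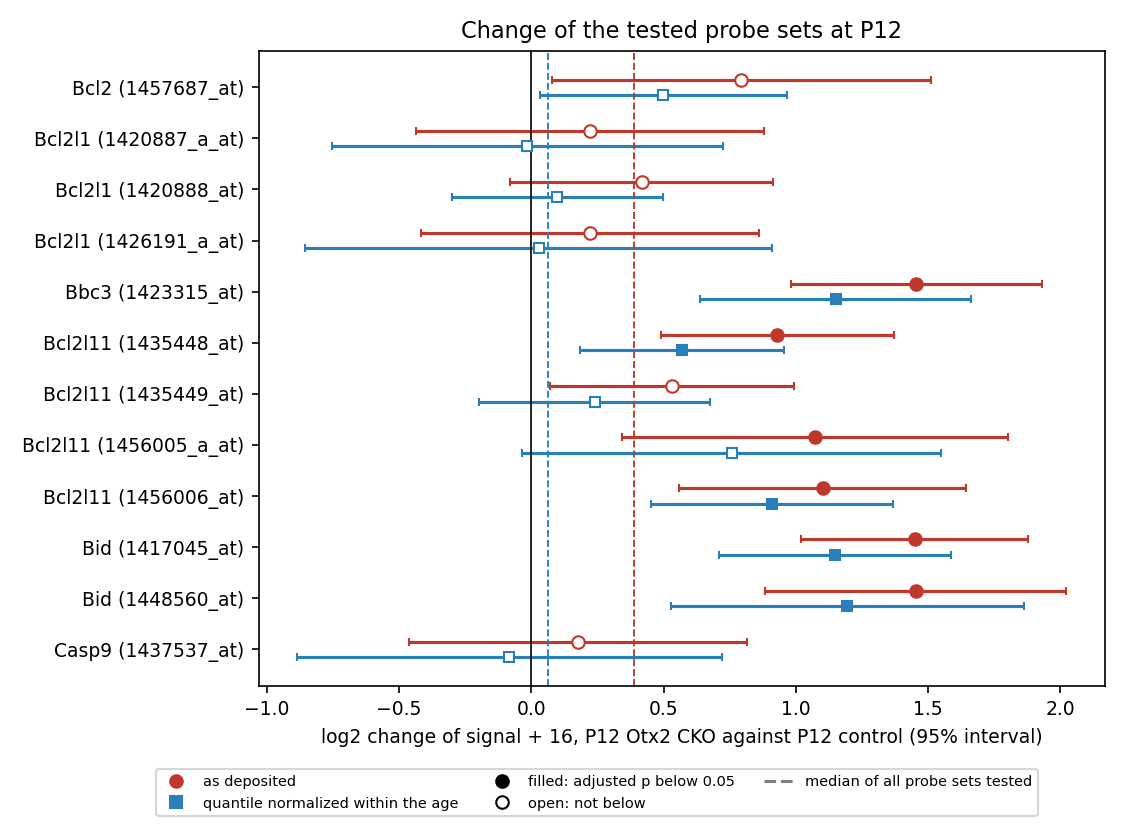
Log2 change of signal + 16 between the P12 Otx2 CKO and the P12 control retinas with its 95% interval for the 12 tested probe sets, as deposited (circles) and after quantile normalization within the age (squares); filled symbols have an adjusted p below 0.05 (limma), and dashed lines are the medians of all probe sets tested, 0.39 and 0.06. Bid and Bbc3 lie to the right of both medians under either scaling, while the Bcl2l1 and Casp9 intervals include 0.

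Taking the 12 tested probe sets at P12 by array rank, 6 had all 3 Otx2 CKO arrays above all 3 control arrays, where 20.8% of all probe sets tested did. Bid 1448560_at and Bcl2l11 1456006_at were among the 6, and were tested only through their Otx2 CKO means. They therefore add no support here. The same holds for the counts after quantile normalization within each age and with the block, where both were called again. After quantile normalization within each age 13 member probe sets were tested. Of these 5 were higher, those of Bid (2), Bbc3 (1) and Bcl2l11 (2), where 8.33% of all were higher. When blocked on the experiment number 8 of 12 were higher, where 36.3% of all were higher. The spread between the arrays of a group was larger at P12 than at P1. The median SD on the log2 scale was 0.403 in the Otx2 CKO and 0.438 in the control retinas at P12, and at P1 it was 0.186 in the Otx2 CKO and 0.125 in the control retinas, while the model pools the 4 groups. With each age fitted alone 2 of 12 were higher, Bid 1417045_at (adjusted p = 0.0315) and Bbc3 (adjusted p = 0.0351), where 1.76% of all were higher. With each age fitted alone and quantile normalized, 0 of the 13 passed.

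Whether the genotype difference itself differed between P12 and P1 was tested with an interaction contrast. It was larger at P12 for 3 of 12 tested probe sets, and smaller for none, where 3.08% of all 21530 were larger and 1.79% smaller. One of the 3, Bid 1448560_at, was tested only because its P12 Otx2 CKO mean reached the limit, so that a larger difference at P12 was built into its being tested, and only 2 of the 3 can be read. For Bid the P12 difference exceeded the P1 difference by 1.48 (1417045_at, SE 0.28, adjusted p = 0.00986) and by 1.70 (1448560_at, SE 0.37, adjusted p = 0.0224), and for Bbc3 by 1.43 (SE 0.31, adjusted p = 0.0211, all limma on the deposited signals). For Bcl2l11 1435448_at it was 1.02 (adjusted p = 0.0626), and for Bcl2 1457687_at 1.15 (adjusted p = 0.161). The median of this contrast over all probe sets was 0.53 as deposited. After quantile normalization of the 12 arrays or within each age, 0 of the member probe sets passed, with 0.92 to 1.03 for Bid 1417045_at (adjusted p = 0.101 and 0.0602). For Bbc3 the call was also lost without any 1 of P1 Otx2 CKO replicates 1, 2 and 3, P1 control replicates 2 and 3, and P12 control replicate 3 (adjusted p up to 0.0819). For Bid 1448560_at it was lost without any 1 of P1 Otx2 CKO replicates 2 and 3 and P1 control replicates 1, 2 and 3 (adjusted p up to 0.0771).

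To set the ages side by side, the 12 arrays were quantile normalized together. On this scale 9 member probe sets were tested in each genotype, since fewer reached a signal of 50. None of them was of Bak1 or Pmaip1. In the control retina 1 of 9 was lower and 0 higher at P12 than at P1, where 19.6% of all probe sets were lower and 19.5% higher. This was Bcl2, at 35.4 ± 12.6 in P12 control and 71.5 ± 5.66 in P1 control retinas (SD, n = 3 each). The log2 change was −0.80 (SE 0.21, adjusted p = 0.00966, limma). In the Otx2 CKO retina the Bcl2 means were 53.2 ± 9.88 at P12 and 57.4 ± 7.54 at P1 (−0.09, adjusted p = 0.792). On the deposited scale the Bcl2 change with age was positive in both genotypes, 1.63 in the Otx2 CKO and 0.48 in the control retina, where the median over all probe sets was 1.85 and 1.44.

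In the Otx2 CKO retina 1 of 9 was higher and 0 lower at P12 than at P1, where 14.3% of all probe sets were higher and 13.3% lower. This was Bid 1417045_at, at 117.5 ± 22.8 in P12 Otx2 CKO and 65.6 ± 0.781 in P1 Otx2 CKO retinas (log2 change 0.70, SE 0.20, adjusted p = 0.021, limma). In the control retina its means were 47.8 ± 14.3 at P12 and 57.5 ± 5.16 at P1 (−0.22, adjusted p = 0.4). The Otx2 CKO call was lost without any 1 of P1 Otx2 CKO replicates 1, 2 and 3 and P12 Otx2 CKO replicates 2 and 3 (adjusted p up to 0.0751). Bbc3 was 98.4 ± 19.4 at P12 and 74.9 ± 25.6 at P1 in the Otx2 CKO retina, and 39 ± 12 at P12 and 60 ± 12.1 at P1 in the control retina, and neither change with age passed (adjusted p = 0.322 and 0.158). The comparisons of the 2 genotypes with age share arrays with the genotype comparisons at each age and add no independent evidence.

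**Figure D3:**
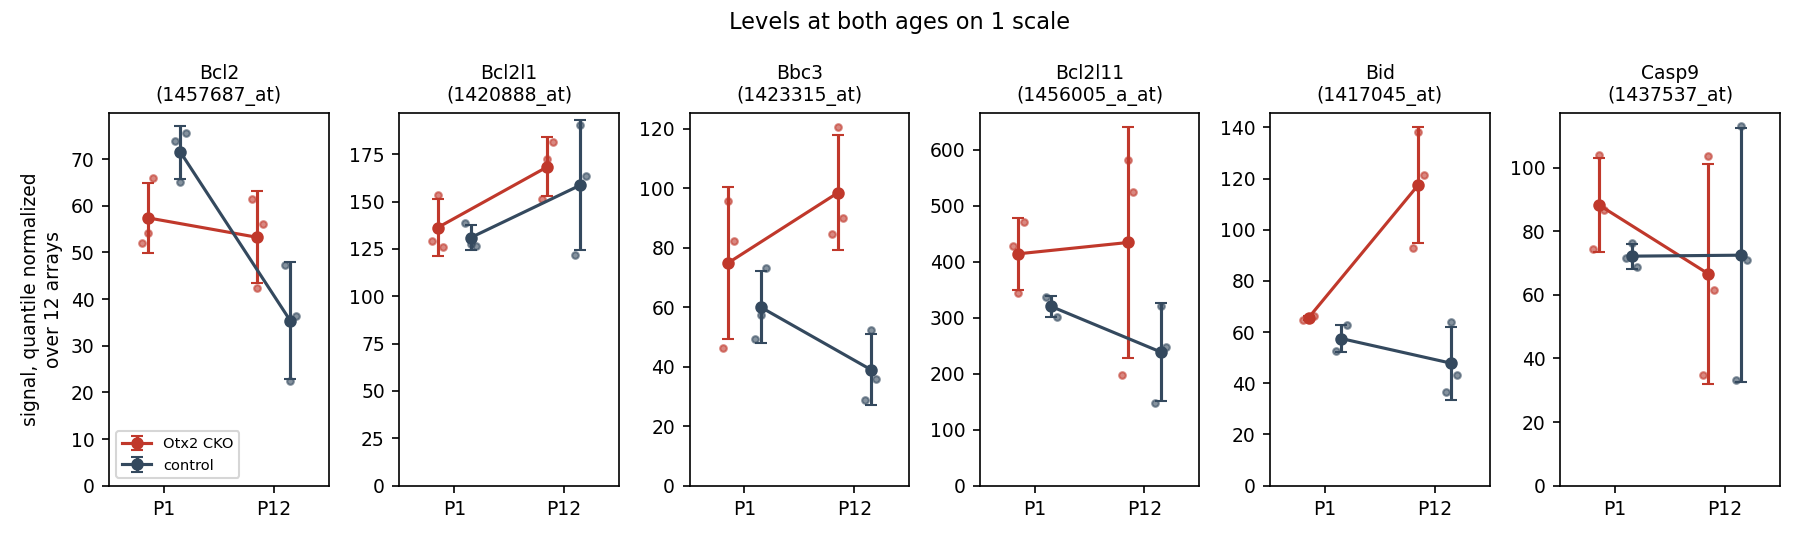
Signals of 6 genes after quantile normalization of the 12 arrays, at P1 and P12 in the Otx2 CKO (red) and control (dark) retinas; small points are arrays, large points with bars are means and SD (n = 3). Bid reached 117.5 in the P12 Otx2 CKO and 47.8 in the P12 control retina, and Bcl2 in the control retina was 35.4 at P12 against 71.5 at P1.

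On the same scale, the genes whose log2 signals followed each member most closely over the 12 arrays were looked up among 14225 probe sets, as a description. Arrays of a group share their genotype, age and brightness, which raises all such correlations. For Bid these were Ntn4 (r = 0.987) and Prag1 (r = 0.98), for Bbc3 Nkain1 (0.969) and Cyba (0.951), and for Bcl2l11 Ube4b (0.938) and Ier5 (0.935). For Bcl2l1 they were Ncdn (0.951) and Ctsa (0.946), for Bcl2 Phtf2 (0.941) and Snx6 (0.939), and for Casp9 Selenoo and Med9 (0.977 each). Those of Bak1 and Pmaip1, Cherp (0.932), Spryd4 (0.916), Cdyl2 (0.831) and Rab2b (0.818), rest on signals near or below the limit.

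Around the members, 82 other genes of apoptosis in 9 lists were examined, of which 73 had a probe set. Where a gene had several, that with the highest mean over the 12 arrays was used. At P12, 49 were tested, and 7 were higher and 3 lower, with a median log2 change of 0.35, near the 0.39 of all probe sets. The background was 14.2% higher and 4.54% lower over all probe sets tested, so that the calls of the lists were about as frequent as those of all probe sets. After quantile normalization within each age 2 were higher and 3 lower, where 8.33% of all probe sets were higher. With each age fitted alone 0 passed, where 1.76% of all were higher. With the block 14 were higher and 3 lower, where 36.3% of all were higher. At P1, 29 were tested and none passed, with log2 changes of −0.54 to 0.63.

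Of 6 tested genes among the other BH3-only and pore-forming members, 1 was higher, 1 was lower and 4 did not pass. Bmf, a BH3-only protein tethered to the cytoskeleton, was lower, at 38.1 ± 12.3 in the P12 Otx2 CKO and 106 ± 1.23 in the P12 control retinas (SD, n = 3 each, log2 change −1.19, adjusted p = 0.00186, limma). It was lower in 25 of 26 alternative settings. However, it was tested only through its control mean, so that a difference was partly required for it to be tested at all. Hrk, a BH3-only protein of neurons, was higher, at 57.8 ± 22.6 in the P12 Otx2 CKO and 18.7 ± 16.2 in the P12 control retinas (1.16, adjusted p = 0.0291). It was tested only through its Otx2 CKO mean and did not pass after quantile normalization within each age (adjusted p = 0.11), or without P12 control replicate 1 or 3 (adjusted p = 0.0783 and 0.0684). The 2 tested anti-apoptotic genes, Mcl1 (0.42) and Bcl2l2 (−0.14), did not pass.

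Downstream of the mitochondria, Apaf1, the scaffold on which Casp9 is activated, was higher at 206 ± 81.2 in the P12 Otx2 CKO and 88.8 ± 13.8 in the P12 control retinas (1.03, adjusted p = 0.018, limma). It held after quantile normalization within each age (0.69, adjusted p = 0.0116) and without each array in turn, and it was the only 1 of 6 apoptosome and mitochondrial genes to pass. Of 3 other caspases tested, 2 were higher on the deposited signals, where 14.2% of all probe sets were. They were Casp2 (1.01, adjusted p = 0.0361) and the executioner Casp6 (0.75, adjusted p = 0.0313). After quantile normalization within each age they did not pass (adjusted p = 0.0785 and 0.207). With 1 array left out, Casp2 passed only without P12 control replicate 1 or 2 or P12 Otx2 CKO replicate 3, and Casp6 only without P1 Otx2 CKO replicate 1 or 2, P12 control replicate 2 or P12 Otx2 CKO replicate 3. None of 3 caspase inhibitors and none of 3 substrates of DNA breakdown passed.

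Among death receptors and adaptors 2 of 4 tested were higher, where 14.2% of all probe sets were, and 1 of 4 after quantile normalization within each age, where 8.33% were. Tnfrsf21 (death receptor 6) was 271 ± 46.7 in the P12 Otx2 CKO and 113 ± 60.8 in the P12 control retinas (1.24, adjusted p = 0.0102, limma), and it held after quantile normalization within each age (adjusted p = 0.0408). Without P12 control replicate 3 its adjusted p was 0.0508. Tnfrsf1a, a receptor of tumor necrosis factor, was 173 ± 20 in the P12 Otx2 CKO and 88.5 ± 12.2 in the P12 control retinas (0.86, adjusted p = 0.0156), and did not pass after that normalization (adjusted p = 0.123) or without P12 control replicate 3 (adjusted p = 0.0676).

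Of 12 tested genes of the p53 list, which holds p53 family members and known targets, 1 was higher and 1 lower. Zmat3, an RNA-binding p53 target, was higher (0.59, adjusted p = 0.0435), a call that with 1 array left out held only without P12 control replicate 2, and that was lost after quantile normalization within each age (adjusted p = 0.392). Tigar, a regulator of glycolysis, was lower at 97.2 ± 33.9 in the P12 Otx2 CKO and 234 ± 52.2 in the P12 control retinas (−1.16, adjusted p = 0.0058, limma), in 25 of 26 alternative settings. The p53 targets Trp53inp1 (1.43, adjusted p = 0.0924), Cdkn1a (0.78, adjusted p = 0.0677) and Gadd45a (0.83, adjusted p = 0.0916) did not pass. Blocked on the experiment number all 3 passed (adjusted p = 2.34e-07, 0.00296 and 0.00571), while after quantile normalization within each age without the block none did (adjusted p = 0.144, 0.301 and 0.29). With the block 36.3% of all probe sets tested were higher. Of the other uncalled genes of this list, Mdm4 passed with the block (adjusted p = 0.0221). Mdm2, Ccng1, Sesn1, Sesn2, Phlda3 and Aen did not (adjusted p = 0.0674 to 0.945). Among 10 tested regulators of BH3-only genes, Atf4, a transcription factor of the stress response, was lower (−0.72, adjusted p = 0.0406), and more so after quantile normalization within each age (−1.02, adjusted p = 0.000414). On the deposited signals, with 1 array left out, Atf4 passed only without P12 control replicate 1. Jun (0.80, adjusted p = 0.0606), Foxo1 (0.32, adjusted p = 0.339) and Foxo3 (0.26, adjusted p = 0.576) did not pass, and with the block only Jun of these 3 did (adjusted p = 0.00965). Genes of these lists named without a call were chosen after their values were seen.

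**Figure D4:**
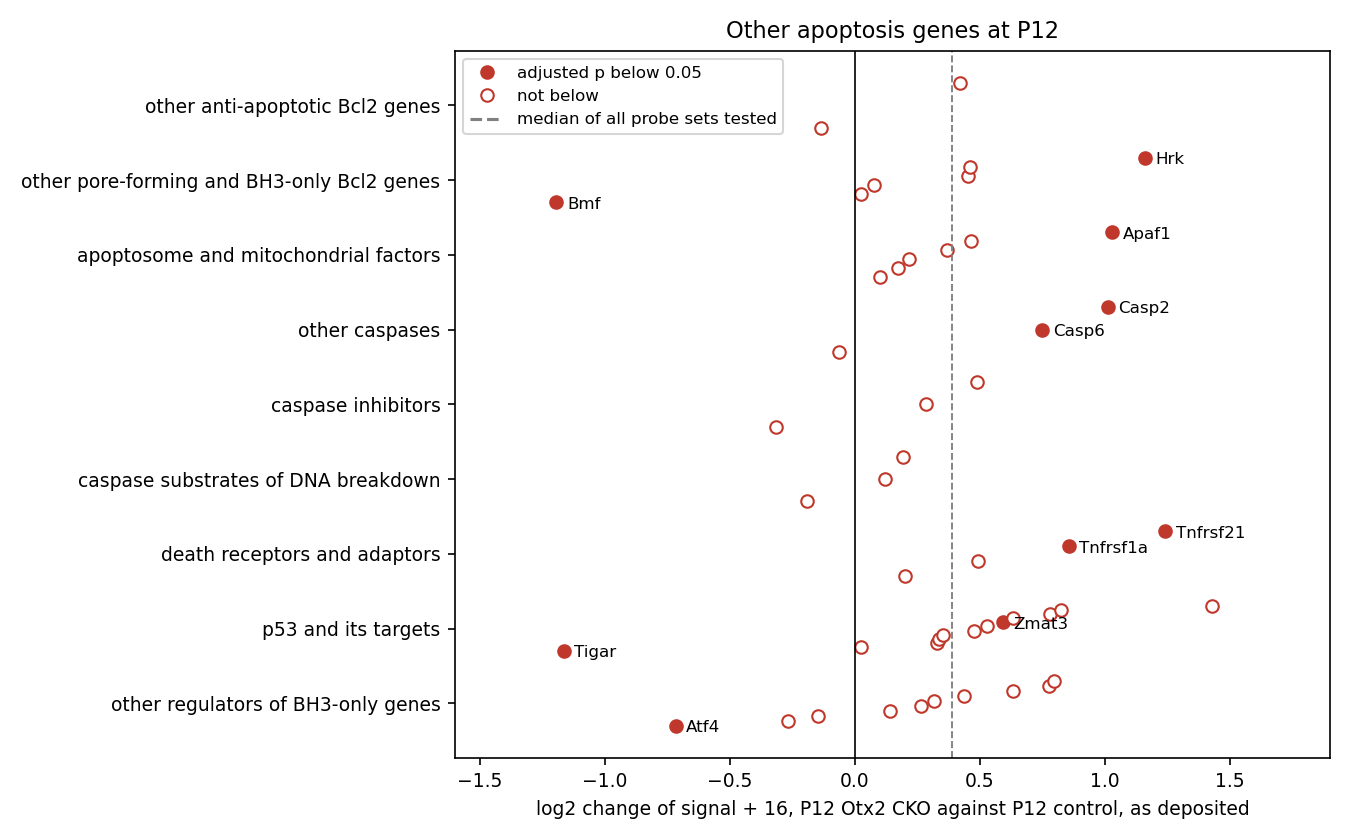
Log2 change of signal + 16 between the P12 Otx2 CKO and the P12 control retinas for the 49 tested genes of 9 apoptosis lists, on the deposited signals; filled points have an adjusted p below 0.05 (limma) and are named, and the dashed line is the median of all probe sets tested, 0.39. The 7 genes that were higher and the 3 that were lower, Bmf, Tigar and Atf4, are spread over 6 of the 9 lists.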

How the data were processed

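Whole-retina RNA was measured on 12 Affymetrix Mouse Genome 430 2.0 arrays. The authors deposited signal intensity values on a linear scale, per the file headers and the study's methods from the array maker's software. How arrays were scaled is not given in the sources used here. Of 45101 probe sets, 34958 had 1 gene symbol, 932 several and 9211 none, and the 64 control probe sets were left out of tests.

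Groups followed titles and genotype fields. The members, lists and tests were chosen with earlier results of these data known. All probe sets of the members were reported. Of each list the called genes were named, up to 4 in each direction, and for each member the 2 genes most correlated with it. Signals were tested as log2(signal + 16) with limma 3.58.1 in R 4.3.3 (lmFit, eBayes with trend, 4 groups, 12 arrays, two-sided), where a compared group averaged at least 50. P-values were adjusted by Benjamini-Hochberg over all probe sets tested, with a threshold of 0.05. Fold changes on this scale understate those of dim probe sets. Ages were compared after quantile normalization of the 12 arrays. The number of arrays limits the precision.

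Arrays with the same experiment number deviated together, and their deviations correlated at 0.143 to 0.25 (P1) and 0.538 to 0.88 (P12). The number was therefore also fitted as a block, within age for genotypes and as a random block between ages. On the deposited signals that fit gave each probe set the spread of the trend alone. Scaling, offset, signal limit, block, each age alone and leaving out each array were tried as alternatives. Simulated data were also fitted, but no result of that check is given here. It is not taken as a check on arrays that deviate together. Nor is it taken as one on the blocked fits, each age alone, the interaction contrast or the comparisons between ages. Promoter sequences are from RefSeq (GRCm38.p6), and motifs were searched on both strands with Python 3.11.15.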

Additional observations from a re-analysis of the deposited data

Results flagged for a closer look

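For 3 member probe sets the genotype difference was larger at P12 than at P1 by the test of the difference itself (limma, deposited signals). For Bid this was 1.48 on the log2 scale at 1417045_at (SE 0.28, adjusted p = 0.00986) and 1.70 at 1448560_at (SE 0.37, adjusted p = 0.0224). For Bbc3 it was 1.43 (SE 0.31, adjusted p = 0.0211). The probe set 1448560_at was tested only because its P12 Otx2 CKO mean (75.5) reached the limit of 50, the other group means being 18.5 or less, so that its value is a description. All 3 lost significance after quantile normalization within each age (adjusted p = 0.0602, 0.106 and 0.132).

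For Casp6 and Zmat3 all 3 Otx2 CKO arrays lay above all 3 control arrays at P12 and below them at P1. The difference between the ages was 0.95 for Casp6 (SE 0.31, adjusted p = 0.0951) and 0.72 for Zmat3 (SE 0.26, adjusted p = 0.128), and neither passed the threshold. At P1 the median log2 change over all probe sets tested was −0.20. Casp6 was also at −0.20 at P1, and at −0.015 after quantile normalization within each age. Zmat3 was under the limit at P1, with means of 30.1 in the Otx2 CKO and 34.4 in the control retinas, and was not tested. The share of all probe sets whose arrays turn in this way was not counted.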

How the results depend on the processing

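At P12 the 6 member probe sets called became 2 after quantile normalization of the 12 arrays, where 1352 of all 16995 were higher. They became 3 with scaling to 1 trimmed mean (1198 of all 14843) and 2 with scaling to the hybridization spikes (1106 of all 16927). With each age fitted alone they became 2 (1.76% of all), and 0 when that was also quantile normalized. The 10 list genes became 5 under each of the 4 scalings, 17 with the experiment number as a block, 18 with the block and quantile normalization within each age, 0 with each age alone and 3 when that was also normalized. Leaving out 1 array gave 3 (without P12 control replicate 3) to 15 (without P12 control replicate 2). Of all probe sets tested at P12, 36.3% were higher with the block on the deposited signals. The 3 member probe sets whose genotype difference changed with age became 0 with quantile normalization of the 12 arrays (235 of all 18643 larger). They also became 0 within each age (352 of 21302) and with the spikes (155 of 17486). They became 1 with the trimmed mean (203 of 16402) and with log2(signal + 1). With the replicate block they became 7. The share of all probe sets is not given for that fit, so that the 7 are not read as a result on the members. Without 1 array the calls of this contrast were at the lowest 1 (without P1 Otx2 CKO or P1 control replicate 2 or 3). At the highest they were 4 (without P12 control replicate 1 or 2 or P12 Otx2 CKO replicate 2). Between the ages, the 1 member probe set called higher in the Otx2 CKO retina became 12 higher as deposited and 4 higher with the spikes. Without 1 array the count was 0 to 1. The 1 called lower in the control retina became 0 lower and 8 higher on deposited signals, 0 lower and 1 higher with the spikes, 3 lower with no signal limit and 0 with a limit of 100. Of all probe sets tested, 19847 of 20638 in the Otx2 CKO and 15342 of 18560 in the control retina were higher with age as deposited. With the spikes these were 6270 of 15992 and 7555 of 16129. The member counts on these scales are therefore not read as results on the members.

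Some uncalled changes turned direction. At P1, Bcl2l1 1420888_at was 0.048 with quantile normalization of the 12 arrays, 0.040 within each age, 0.037 with the trimmed mean and 0.12 with the spikes. Bcl2l11 1435448_at was 0.11, 0.095, 0.097 and 0.17 under quantile normalization of the 12 arrays, within each age, the trimmed mean and the spikes. At P12, Bcl2l1 1420887_a_at was −0.023 with quantile normalization of the 12 arrays, −0.015 within each age and −0.049 with the spikes, and −0.10 to 0.58 without 1 array. Bcl2l1 1426191_a_at was −0.11 to 0.46 without 1 array. Casp9 1437537_at was −0.079 with quantile normalization of the 12 arrays, −0.083 within each age, −0.076 with the trimmed mean and −0.087 with the spikes, and −0.16 to 0.50 without 1 array. Normalized values within each age were the same with the block or each age alone. With age, on deposited signals, Bcl2 was 1.63 in the Otx2 CKO retina and 0.48 in the control retina, where Bid was 1.07. Bcl2 in the Otx2 CKO retina was 0.42 with the spikes and −0.15 to 0.029 without 1 array. The causes were not tested.

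At P12 the replicate block gave 8 member probe sets in place of 6, adding Bcl2 (adjusted p = 0.00176) and Bcl2l11 1435449_at (adjusted p = 0.0466). It removed no member call at either age. Its prior degrees of freedom were infinite on deposited signals and 7.23 after quantile normalization within each age. Probe sets with a mean signal under 50 in every group compared, 12 of the 24 at P12 and 21 at P1, were not tested.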
